A study of Homo sapiens with 18 samples.

Results

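ROR1, MAML3, EPS15L1, RNF115 and WSB2 are 5 genes that were lower after cells received an antisense oligonucleotide (ASO) directed at AL078604.2, a long non-coding RNA. They were taken by their gene symbols on the array platform, and each symbol had 1 feature (transcript cluster), so the 5 genes are 5 of the 53617 features on the array. All 5 were among the 29855 features bright enough to be tested. They were picked because their values in cells labelled MDA-MB-231, and in part MDA-MB-468, were lower after the anti-AL078604.2 ASO. The differences in those lines therefore describe the choice and are given without a test. The difference in SKBR3 cells, which used another ASO, took no part in the choice and is tested. The errors behind the choice pooled the spread of all groups of arrays, SKBR3 included. The SKBR3 test is therefore not fully independent of the choice.

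The study measured RNA on 18 Affymetrix Human Gene 2.0 ST arrays, 3 for each of 6 groups, all from cells exposed to an ASO for 48 h at 15 nM. The groups were MDA-MB-231 given the anti-AL078604.2 ASO or the control ASO, MDA-MB-468 given the same pair, and SKBR3 given the anti-LINC01269 ASO or the control ASO. The first line pair is triple-negative breast cancer, lacking the oestrogen, progesterone and HER2 receptors, and SKBR3 is HER2-positive breast cancer. The ASOs were GapmeRs, short DNA-based oligonucleotides whose modified ends protect a core that directs RNase H to cut the bound RNA, and all cells, controls included, received the transfection reagent TransIT-BrCa with their ASO. Each target was met by a single ASO in these groups. No feature carries the name of either target, so how far the ASOs lowered their targets was not analysed here. The labels do not say whether the 3 arrays of a group came from separate cultures, so p-values measure only the spread between these arrays, which may be technical.

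Values are the deposited log2 expression values, and a difference is anti-lncRNA ASO minus control ASO on that scale. Replicate arrays correlated with r from 0.985 to 0.987 in SKBR3 groups, from 0.989 to 0.992 in MDA-MB-231 groups and from 0.986 to 0.992 in MDA-MB-468 groups. Array medians were 5.41 to 5.43 for MDA-MB-231, 5.21 to 5.24 for MDA-MB-468 and 4.56 to 4.63 for SKBR3. The cause of these unequal medians was not tested, and no level was tested between lines. Line markers in the control arrays went partly with and partly against the labels. The epithelial gene EPCAM, known to be low in MDA-MB-231, stood at percentile 99.2 of the features on MDA-MB-231 control arrays, 99.3 in MDA-MB-468 and 98.9 in SKBR3. The mesenchymal filament gene VIM stood at 76.6, 82.1 and 80.4, and the basal keratin gene KRT5 at 73.4, 85.8 and 69.6, in the same order. AXL, a receptor kinase gene of mesenchymal-like lines, stood at 83.2, 60.1 and 80.7, and the mesenchymal transcription factor gene ZEB1 at 45.8, 33.3 and 43.7. RB1, a tumour suppressor gene known to be lost in MDA-MB-468, stood at 60.3, 24.9 and 47.7. GRB7, a neighbour of ERBB2 that is amplified with it, was taken as an SKBR3 marker and stood at 81.3, 78.8 and 79.1. EGFR, taken as an MDA-MB-468 marker, stood at 98.2, 98.7 and 99.0. Neither set the lines apart, and neither was highest in the line it was taken to mark. The keratin genes KRT18 and KRT8, taken as SKBR3 markers, stood at 98.5, 97.0 and 98.7 and at 74.0, 75.5 and 77.6. ERBB2, which encodes HER2, and CDH1 have no named feature, and the endothelial gene PECAM1 stood at or below percentile 43.3. Each line name below is therefore the label of the arrays.

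The 5 genes act at different places in the cell. ROR1 is a receptor tyrosine kinase-like protein of the plasma membrane that binds WNT5A and signals outside the beta-catenin branch; it is abundant in the embryo, sparse in most adult tissue and present again in many carcinomas. MAML3 is a Mastermind-like nuclear coactivator: when a Notch receptor is cleaved, its intracellular domain joins the DNA-binding protein RBPJ and a Mastermind protein, which brings in acetyltransferases to switch target genes on. EPS15L1 is a scaffold of clathrin-coated pits, the membrane buds by which receptors such as EGFR are taken into the cell. RNF115, also named BCA2, is a RING-type ubiquitin ligase first described in breast cancer, and WSB2 is a WD-repeat protein whose SOCS box links substrates to a Cullin-RING ubiquitin ligase.

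The promoter windows of the 5 genes are shown because the genes had lower values in both triple-negative lines, ROR1 only slightly so in MDA-MB-468. Each holds 250 bases before and 50 bases after a transcription start of RefSeq (GRCh38.p14), written 5′ to 3′ on the gene's strand, and capitals mark matches to the GC box GGGCGG on either strand, the letters that SP-family factors bind. WSB2 has a window at each of 2 starts. EPS15L1 also has 2, which overlap, and the one at the gene's outermost start is printed.
ROR1, chr1:63773767-63774066, plus strand: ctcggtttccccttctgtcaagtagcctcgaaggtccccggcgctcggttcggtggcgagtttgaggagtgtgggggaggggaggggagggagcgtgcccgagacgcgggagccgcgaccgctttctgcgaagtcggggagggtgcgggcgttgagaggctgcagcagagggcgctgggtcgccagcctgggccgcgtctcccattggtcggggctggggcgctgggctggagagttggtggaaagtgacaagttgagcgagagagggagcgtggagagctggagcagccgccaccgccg
MAML3, chr4:140154135-140154434, minus strand: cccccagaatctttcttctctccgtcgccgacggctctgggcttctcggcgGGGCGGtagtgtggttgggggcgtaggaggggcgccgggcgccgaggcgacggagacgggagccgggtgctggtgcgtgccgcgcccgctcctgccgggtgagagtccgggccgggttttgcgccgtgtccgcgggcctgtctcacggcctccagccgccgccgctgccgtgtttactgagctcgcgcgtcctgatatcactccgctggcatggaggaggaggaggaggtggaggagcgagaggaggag
EPS15L1, chr19:16471963-16472262, minus strand: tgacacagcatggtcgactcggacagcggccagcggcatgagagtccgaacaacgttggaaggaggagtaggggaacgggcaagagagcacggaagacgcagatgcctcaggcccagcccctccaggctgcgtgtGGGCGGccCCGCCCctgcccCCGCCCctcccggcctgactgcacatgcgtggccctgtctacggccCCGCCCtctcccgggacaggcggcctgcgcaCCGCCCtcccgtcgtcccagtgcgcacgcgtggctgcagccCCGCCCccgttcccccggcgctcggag
RNF115, chr1:145824046-145824345, minus strand: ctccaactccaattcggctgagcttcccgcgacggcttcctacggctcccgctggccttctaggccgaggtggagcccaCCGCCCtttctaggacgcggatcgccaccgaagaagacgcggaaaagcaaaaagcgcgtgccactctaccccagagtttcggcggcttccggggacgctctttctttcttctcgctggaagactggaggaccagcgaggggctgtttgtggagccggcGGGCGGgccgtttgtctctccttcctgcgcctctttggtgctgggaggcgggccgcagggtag
WSB2 outer start, chr12:118062125-118062424, minus strand: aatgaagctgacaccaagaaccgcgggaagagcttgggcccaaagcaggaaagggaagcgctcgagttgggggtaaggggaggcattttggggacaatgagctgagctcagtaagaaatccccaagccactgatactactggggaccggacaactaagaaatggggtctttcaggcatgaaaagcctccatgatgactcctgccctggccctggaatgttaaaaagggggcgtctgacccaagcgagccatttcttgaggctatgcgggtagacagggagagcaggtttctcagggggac
WSB2 inner start, chr12:118061130-118061429, minus strand: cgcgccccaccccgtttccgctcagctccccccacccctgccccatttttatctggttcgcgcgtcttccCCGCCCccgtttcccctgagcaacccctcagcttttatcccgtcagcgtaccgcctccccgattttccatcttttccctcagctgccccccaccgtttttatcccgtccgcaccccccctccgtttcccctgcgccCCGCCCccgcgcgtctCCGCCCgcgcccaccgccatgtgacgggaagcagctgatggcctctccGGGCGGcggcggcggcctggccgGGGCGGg

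These windows had little in common beyond base composition. The G and C content was 69.0% for ROR1, 71.3% for MAML3, 72.7% for EPS15L1, 64.3% for RNF115 and 70.7% for the inner start of WSB2, against a median of 58.7% over 35116 promoter windows of the same length. The outer start of WSB2 stood apart, with 54.7% G and C and 8 CpG dinucleotides, against 29 to 37 in the other printed windows. The GC box was found 6 times in EPS15L1, 5 times at the inner start of WSB2, 2 times in RNF115 and 1 time in MAML3, and not in the ROR1 window or at the outer start of WSB2. It is in 45% of all such windows. On either strand, the CCAAT box (CCAAT, in 34.6% of all windows) was found in ROR1 and RNF115 and the ETS site (CCGGAA, 17.2%) in RNF115. The TATA box (TATAAA, 11.5%), the AP-1 site (TGANTCA, 7.71%), the E-box (CACGTG, 7.26%) and the RBPJ site of Notch-driven genes (TGGGAA, 24%) were in none of the printed windows. A YY1 site (AAGATGGC, 2.89%) was in the other EPS15L1 window only. No 2 matches in the printed windows share a base, and a match is a description of the letters, not evidence of binding.

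All 5 genes were lower in every anti-AL078604.2 array than in any control array of the same line, in MDA-MB-231 and again in MDA-MB-468. In MDA-MB-231 the differences ran from -0.63 log2 for EPS15L1 to -0.33 for WSB2, and their median was -0.50, against 0.0104 over all tested features. In MDA-MB-468 they ran from -0.49 for EPS15L1 to -0.18 for ROR1, with a median of -0.38, against -0.00353 over all. Such a separation toward lower values was seen in 7.87% of tested features in MDA-MB-231, in 8.5% in MDA-MB-468 and in both lines in 1.35%. As the genes were chosen for it, nothing is read from their count. These are bulk RNA values, in which fewer cells expressing a gene and less RNA per cell cannot be told apart.

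**Figure D1:**
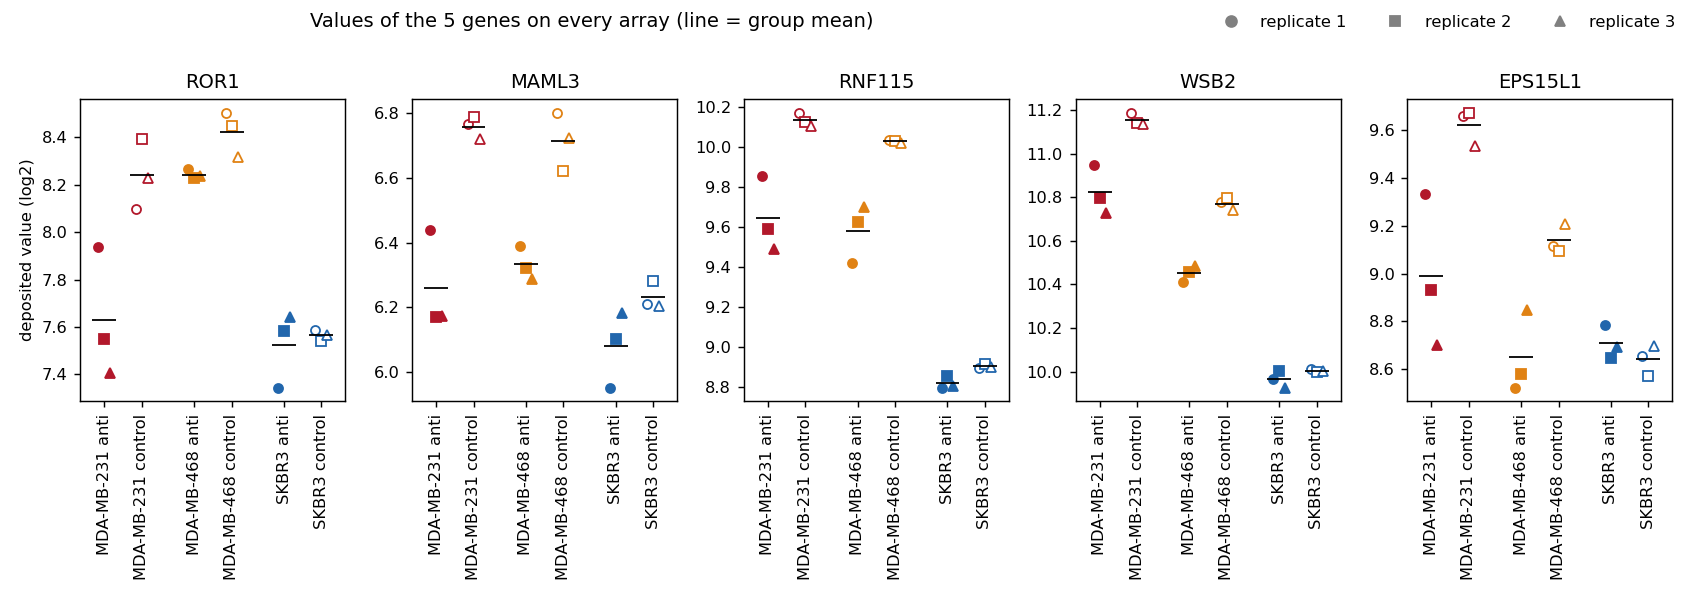
Deposited log2 values of the 5 genes on each of the 18 arrays, 1 panel per gene, with its own y axis. Filled symbols are anti-lncRNA ASO arrays, open symbols control arrays, shapes the replicate number and bars the group mean of 3 arrays. In MDA-MB-231 and MDA-MB-468 each filled symbol lies below all open symbols of its line, while the SKBR3 groups lie close together.

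ROR1, the surface receptor, had 7.94, 7.55 and 7.41 log2 in the 3 MDA-MB-231 arrays with the anti-AL078604.2 ASO, against 8.10, 8.39 and 8.23 in the 3 with the control ASO. The groups did not overlap, but the highest anti-AL078604.2 array lay only 0.16 below the lowest control. The difference was -0.61 ± 0.116 log2 (SE, n = 3 per group), or 34.4% less than control. Here and below the SE is limma's, pooled over all 6 groups, so a gene has the same SE in each line. It is not the spread of these arrays alone, whose SD was 0.276 with the anti-AL078604.2 ASO and 0.147 with the control ASO. In MDA-MB-468, ROR1 had 8.26, 8.23 and 8.23 with the anti-AL078604.2 ASO, against 8.50, 8.45 and 8.31 with the control ASO. The anti-AL078604.2 arrays were nearly equal there, and the gap to the controls was 0.05. That difference was -0.18 ± 0.116, the smallest of the 5 in this line. ROR1 also had the widest distance between the lines: the MDA-MB-231 difference minus the MDA-MB-468 difference was -0.43 ± 0.164.

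MAML3, the Notch coactivator, had 6.44, 6.17 and 6.17 log2 in MDA-MB-231 with the anti-AL078604.2 ASO, against 6.77, 6.79 and 6.72 with the control ASO. The controls were close together (SD 0.0354), and the lowest lay 0.28 above the highest anti-AL078604.2 array. The difference was -0.50 ± 0.0892 log2, or 29.2% less than control. In MDA-MB-468 the values were 6.39, 6.32 and 6.29 with the anti-AL078604.2 ASO, against 6.80, 6.62 and 6.72 with the control ASO. Again the groups were apart, by 0.23, with a difference of -0.38 ± 0.0892. The line difference was -0.12 ± 0.126, inside its own error.

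EPS15L1, the endocytic scaffold, had the lowest differences of the 5 in both lines. Its MDA-MB-231 values were 9.33, 8.93 and 8.70 log2 with the anti-AL078604.2 ASO, against 9.66, 9.67 and 9.54 with the control ASO. The 3 anti-AL078604.2 arrays were far apart, and replicate 1 lay 0.20 below the lowest control. The difference was -0.63 ± 0.120, or 35.5% less than control. MDA-MB-468 arrays read 8.52, 8.58 and 8.85 with the anti-AL078604.2 ASO, against 9.12, 9.10 and 9.21 with the control ASO. There replicate 3 was the high array, 0.25 below the lowest control, and the difference was -0.49 ± 0.120, or 28.8% less than control. The line difference was -0.14 ± 0.169, inside its own error.

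RNF115, the ubiquitin ligase, had 9.85, 9.59 and 9.49 log2 in MDA-MB-231 with the anti-AL078604.2 ASO, against 10.17, 10.12 and 10.10 with the control ASO. The controls were tight (SD 0.0341) and the anti-AL078604.2 arrays were not (SD 0.190). The difference was -0.49 ± 0.0812, or 28.7% less than control. In MDA-MB-468 the values were 9.42, 9.62 and 9.70 with the anti-AL078604.2 ASO, against 10.03, 10.03 and 10.02 with the control ASO. The control SD was 0.00778, the anti-AL078604.2 SD was 0.145, and the gap between the groups was 0.32, the widest of the 5 genes in that line. The difference was -0.45 ± 0.0812, and the lines were 0.04 apart (-0.04 ± 0.115).

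WSB2, the SOCS box protein, had 10.95, 10.79 and 10.73 log2 in MDA-MB-231 with the anti-AL078604.2 ASO, against 11.19, 11.14 and 11.13 with the control ASO. The groups did not overlap, with a gap of 0.18, and the difference was small but had the smallest error of the 5: -0.33 ± 0.0526, or 20.4% less than control. In MDA-MB-468 it had 10.41, 10.46 and 10.48 with the anti-AL078604.2 ASO, against 10.78, 10.79 and 10.74 with the control ASO. The groups were 0.26 apart, and the difference of -0.32 ± 0.0526 was within 0.01 of that in MDA-MB-231 (-0.01 ± 0.0743).

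The adjusted p-values that led to the choice came from limma's fit over all tested features. In MDA-MB-231, where 0.0737% of tested features were called lower at 0.05, they were 0.0208 for WSB2 and RNF115, 0.0364 for MAML3, 0.0456 for EPS15L1 and 0.0475 for ROR1. The 5 were not the only named genes called lower there: HTRA1 (0.0277), LIX1L (0.0376), IPO9 (0.0400) and WDR4 (0.0422) were too. Among named genes that were lower, ROR1 was the last inside the threshold. The first outside was NF2, the gene of the tumour suppressor merlin, with -0.70 and 0.0511. The count of 5 genes under 0.05 fell to 0 without control replicate 1, 2 or 3, or without anti-AL078604.2 replicate 2 or 3, and stayed at 5 without anti-AL078604.2 replicate 1. It was 2 with no filter on dim features, 1 without the intensity trend, 0 with the arrays of the line alone, 0 with the replicate number as a block, and 4 with arrays centred on their medians, where ROR1 had an adjusted p of 0.0562. In MDA-MB-468, where limma called 0% of tested features lower (0 features, with 3131, or 10.5%, past an unadjusted p of 0.05 in either direction), the selecting values were 0.0817 for WSB2, 0.120 for RNF115, 0.180 for MAML3, 0.194 for EPS15L1 and 0.636 for ROR1.

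**Figure D2:**
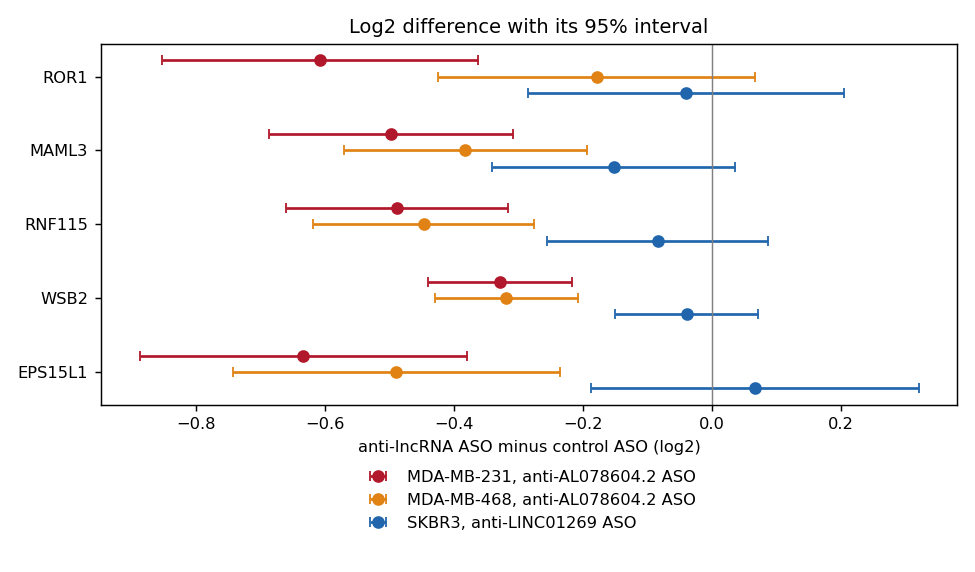
Log2 differences (x axis, anti-lncRNA ASO minus control ASO) of the 5 genes with their 95% intervals, by line. The genes were chosen on the differences in MDA-MB-231, from -0.63 to -0.33, and MDA-MB-468, from -0.49 to -0.18. Their intervals there therefore show the error, pooled over all 6 groups, and are no test. The interval of ROR1 in MDA-MB-468 and all 5 intervals in SKBR3 hold 0.

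The 3 anti-AL078604.2 arrays of MDA-MB-231 were not alike. Replicate 1 was the closest to the controls for all 5, by a median of -0.29 log2 against the control mean, while replicate 2 stood at -0.59 and replicate 3 at -0.65. In MDA-MB-468 the arrays split the genes: replicate 1 was the lowest for EPS15L1, RNF115 and WSB2 and the highest for MAML3 and ROR1. The SD among anti-AL078604.2 arrays exceeded that among controls for 5 of 5 genes in MDA-MB-231 and for 3 of 5 in MDA-MB-468, against 57.2% and 63.1% of all tested features. The same held for 5 of 5 genes in SKBR3 with the anti-LINC01269 ASO, against 57.6% of all. After group means were removed, the 10 pairs of genes correlated over the 18 arrays with r from 0.37 (MAML3 and EPS15L1) to 0.90 (RNF115 and WSB2). These correlations share arrays and their scaling and are a description.

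In SKBR3, none of the 5 genes passed limma's test after the anti-LINC01269 ASO; its SE draws on the spread in all 6 groups. MAML3 had 5.95, 6.10 and 6.18 log2 with the anti-LINC01269 ASO, against 6.21, 6.28 and 6.20 with the control ASO. Its groups were apart by only 0.02, and the difference was -0.15 ± 0.0892 (SE, n = 3 per group; limma adjusted p = 0.635). RNF115 had 8.80, 8.85 and 8.80 with the anti-LINC01269 ASO, against 8.89, 8.91 and 8.90 with the control ASO, again apart by 0.04, with a difference of -0.08 ± 0.0812 (limma adjusted p = 0.797). These were the 2 of 5 genes whose groups did not overlap in the lower direction, as did 4.26% of all tested features.

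The other 3 genes overlapped between the SKBR3 groups. ROR1 had 7.35, 7.58 and 7.64 log2 with the anti-LINC01269 ASO, against 7.59, 7.54 and 7.57 with the control ASO, a difference of -0.04 ± 0.116 (limma adjusted p = 0.951). Without anti-LINC01269 replicate 1, its lowest array, the sign turned to 0.05. WSB2 had 9.96, 10.00 and 9.93 with the anti-LINC01269 ASO, against 10.01, 10.00 and 10.00 with the control ASO (-0.04 ± 0.0526, limma adjusted p = 0.867). EPS15L1 was the only one of the 5 with a value above 0, at 8.79, 8.65 and 8.69 with the anti-LINC01269 ASO, against 8.66, 8.57 and 8.70 with the control ASO (0.07 ± 0.120, limma adjusted p = 0.915).

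The SKBR3 intervals use the pooled SE that also entered the choice of the genes, so they may be too narrow. The 95% interval of the difference was -0.19 to 0.32 for EPS15L1, -0.15 to 0.07 for WSB2, -0.26 to 0.09 for RNF115, -0.29 to 0.20 for ROR1 and -0.34 to 0.04 for MAML3. limma called 0% of the 29855 features in this line (0 features, with 2736, or 9.16%, at an unadjusted p under 0.05), so the absence of a call for these 5 is also that of every other feature. Without anti-LINC01269 replicate 2 it called 231 features, without control replicate 2 it called 5 and without anti-LINC01269 replicate 3 it called 1, none of them among the 5 genes. The ASO, its target and the line all differ from those of the other comparisons, and a difference between the SKBR3 values and the others was not tested.

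**Figure D3:**
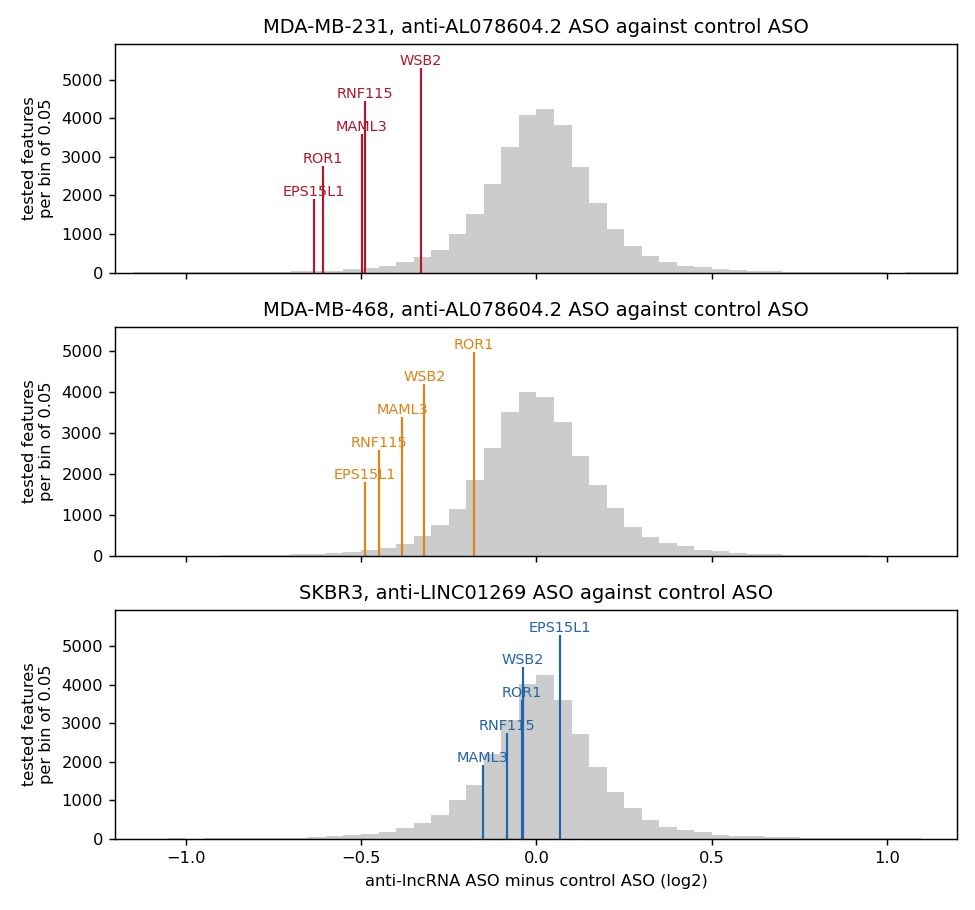
Counts of tested features (y axis) by log2 difference (x axis, bins of 0.05, shown from -1.2 to 1.2), 1 panel per line, with the 5 genes as labelled lines whose heights carry no value. The genes lie in the lower tail in MDA-MB-231 and, but for ROR1, in MDA-MB-468, and near the centre in SKBR3.

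Placed in the distribution of all tested features, EPS15L1 in MDA-MB-231 had 0.606% of features below it, ROR1 0.697%, MAML3 1.21%, RNF115 1.28% and WSB2 3.52%. In MDA-MB-468 the same shares were 1.03% for EPS15L1, 1.44% for RNF115, 2.31% for MAML3, 3.88% for WSB2 and 13.2% for ROR1. SKBR3 had 14.5% of features below MAML3, 25.0% below RNF115, 34.9% below ROR1, 35.1% below WSB2 and 64.5% below EPS15L1. The differences of WSB2 are thus not large for these arrays, and its place on the list rests on a small error.

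Control levels of each gene were set beside each other across lines as percentiles of all features on the array, without a test. RNF115 stood at 95.7 in MDA-MB-231, 96.0 in MDA-MB-468 and 94.4 in SKBR3, and WSB2 at 98.1, 97.9 and 97.6 in the same order, with no overlap between the control arrays of any 2 lines for either gene. EPS15L1 was highest in MDA-MB-231 (94.0), followed by SKBR3 (93.3) and MDA-MB-468 (92.6), whose control arrays overlapped. For ROR1 the order was 88.8 in MDA-MB-468, 87.1 in SKBR3 and 86.3 in MDA-MB-231, with overlap between SKBR3 and MDA-MB-231. MAML3 stood between 74.8 and 75.4 in the SKBR3 control arrays, with means of 74.2 in MDA-MB-468 and 72.7 in MDA-MB-231, with overlap between SKBR3 and MDA-MB-468.

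Each gene has a close relative with a similar protein, and none of those relatives passed the test in any line, though 1 feature was lower and 1 higher at an unadjusted p under 0.05 in MDA-MB-231, and 1 was lower in MDA-MB-468. ROR2, the other ROR receptor, differed by -0.06 log2 in MDA-MB-231, -0.10 in MDA-MB-468 and -0.23 in SKBR3. MAML1 differed by 0.09, 0.05 and -0.03 in the same order, EPS15 by -0.13, -0.05 and -0.16, and RNF126, the closest relative of RNF115, by 0.12, -0.04 and -0.07. WSB1 had values opposite in sign to those of WSB2, with 0.29 (limma adjusted p = 0.169), 0.08 and 0.12. MAML2 had 2 features that disagreed: the brighter differed by -0.43 (limma adjusted p = 0.186), -0.12 and -0.14, and the dimmer by -0.20, -0.52 and 0.14.

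The other genes of the 5 pathways had small differences on balance. No gene of any of the lists passed in any line, where 0.171% of all tested features passed in MDA-MB-231, 0.0067% in MDA-MB-468 and 0% in SKBR3. At an unadjusted p under 0.05 the shares of all features were 9.35%, 10.5% and 9.16%. In MDA-MB-231, the list medians lay between -0.05 and 0.01 log2, against 0.0104 over all features. They ran from -0.03 to 0.03 in MDA-MB-468, against -0.00353 over all, and from -0.03 to 0.01 in SKBR3, against 0.0142.

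Non-canonical WNT and planar cell polarity genes, the setting of ROR1, had 21 of 41 members with a tested feature; WNT5A itself, the ligand of ROR1, has no named feature. In MDA-MB-231, 12 of 21 were below 0, with 2 lower and 2 higher at an unadjusted p under 0.05, and the smallest p-values were those of CAVIN1, a coat protein of caveolae (0.56 ± 0.127 log2, limma adjusted p = 0.0944), and the Frizzled receptor gene FZD3 (-0.53 ± 0.131, 0.119). CAVIN1 led again in MDA-MB-468 (0.34 ± 0.127, 0.349), followed by FZD5 (0.21), with the same 2 and 2 counts. In SKBR3 no gene reached an unadjusted p under 0.05, and the leading values were those of FZD2 (-0.18) and FZD1 (-0.16). Only FZD3 of these 4 Frizzled genes was near the size of ROR1 in MDA-MB-231.

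In the Notch pathway, where MAML3 acts, 40 of 48 genes had a tested feature, and 20 of 41 features were below 0 in MDA-MB-231, 24 in MDA-MB-468 and 20 in SKBR3. Those at an unadjusted p under 0.05 were 3 lower and 5 higher in MDA-MB-231, 4 and 3 in MDA-MB-468, and 1 and 3 in SKBR3. The leading values in MDA-MB-231 were those of ADAM17, a sheddase that can cleave Notch receptors (-0.27 ± 0.0703, limma adjusted p = 0.155), and of MAML2. RBPJ, the DNA-binding partner of MAML3, led in MDA-MB-468 with 0.27 ± 0.0696 (limma adjusted p = 0.206), opposite in sign to MAML3, and NCSTN, a subunit of the gamma-secretase that frees the Notch intracellular domain, followed with -0.31 (0.280). SKBR3 was led by the Deltex ligase gene DTX4 (-0.28) and the ligand gene JAG1 (0.24).

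Clathrin-mediated endocytosis, the process of EPS15L1, had 27 of 49 genes tested, and the clathrin chains and AP2 subunits have no named feature. Among the 27, 13 were below 0 in MDA-MB-231, 16 in MDA-MB-468 and 12 in SKBR3. An unadjusted p under 0.05 was reached by 3 lower and 1 higher in MDA-MB-231, 1 and 2 in MDA-MB-468, and 1 and 1 in SKBR3. The smallest p-values in MDA-MB-231 belonged to the scaffold gene ITSN1 (-0.19 ± 0.0797, limma adjusted p = 0.446) and REPS2, whose protein carries an EH domain as EPS15L1 does (-0.26 ± 0.110, 0.453). In MDA-MB-468 they belonged to HIP1, a link between clathrin and actin (0.29 ± 0.0748, 0.215), and the endophilin gene SH3GL1 (-0.37), and in SKBR3 to NECAP1 (-0.18) and the adaptor gene SH3KBP1 (0.22).

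Ubiquitin genes around RNF115 had 12 of 24 members tested, of which 1 in MDA-MB-231, 3 in MDA-MB-468 and 0 in SKBR3 were lower at an unadjusted p under 0.05 and 0 were higher. UBE2E2, a ubiquitin-conjugating enzyme, had a lower value than RNF115 itself in MDA-MB-231 (-0.85 ± 0.180, limma adjusted p = 0.0739) and MDA-MB-468 (-0.55 ± 0.180, 0.308), and did not pass. UBE2D4 followed in MDA-MB-468 (-0.33), with UBE2V1 at -0.10 in MDA-MB-231 and -0.07 in SKBR3 and UBE2D4 at 0.11 in SKBR3. Of the SOCS box ligase genes, 25 of 34 had a tested feature. At an unadjusted p under 0.05, 1 was lower and 1 higher in MDA-MB-231, 3 were higher in MDA-MB-468 and 1 was higher in SKBR3. They were led in MDA-MB-231 by WSB1 and the substrate receptor gene SPSB1 (-0.28), in MDA-MB-468 by NAE1, part of the enzyme that activates NEDD8 (0.27 ± 0.0776, limma adjusted p = 0.248), and CUL5, the scaffold these ligases share (0.28 ± 0.0944, 0.312), and in SKBR3 by SOCS1 (0.33) and ARIH2 (-0.35).

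**Figure D4:**
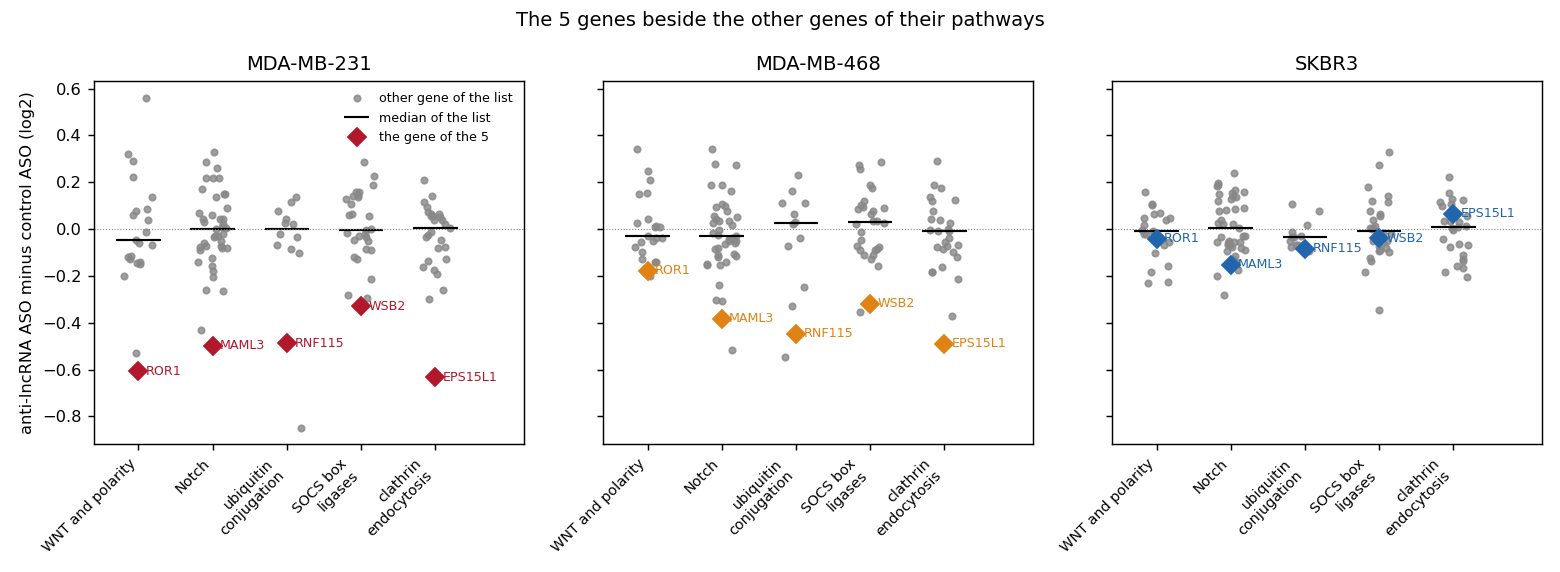
Log2 differences (y axis) of the tested features of each pathway list, 1 panel per line, with the list median as a bar and the gene of the 5 that belongs to it as a diamond. List medians stay between -0.05 and 0.03. In MDA-MB-231 the diamonds of ROR1, MAML3, WSB2 and EPS15L1 are the lowest points of their columns, while UBE2E2 lies below RNF115. The 5 genes were chosen for low values there and the other genes were not, so nothing is read from these places.

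The nearest tested named gene on each side of the 5 on the chromosome did not pass either, and genes farther away were not examined for position. Of these neighbours, the lowest differences in MDA-MB-231 were -0.32 ± 0.116 log2 for PGM1, on the side of the start of ROR1 (limma adjusted p = 0.341), and -0.26 for VSIG10, beside WSB2. In MDA-MB-468 these had -0.11 and -0.06. CACHD1, on the other side of ROR1, had -0.21 in MDA-MB-231 and -0.09 in MDA-MB-468, and KSR2 beside WSB2 had -0.17 and -0.04. MGST2, which overlaps the end of MAML3, had -0.12 in MDA-MB-231 and -0.07 in MDA-MB-468, while SCOC on its other side had -0.11 and 0.22. POLR3C, next to the start of RNF115, had 0.07 in MDA-MB-231 and 0.13 in MDA-MB-468, and GPR89A on the far side had 0.05 and -0.03. Beside EPS15L1, C19orf44 had 0.02 and 0.07, while KLF2, a Krüppel-like transcription factor gene, had 0.24 and -0.17. By gene span in RefSeq, MAML3 (437.4 kb) and ROR1 (407.5 kb) stood at percentiles 98.6 and 98.4 of the 11149 tested named genes, whose median was 23.1 kb. EPS15L1 spans 116.8 kb (percentile 87.8), RNF115 85.2 kb (82.3) and WSB2 29.5 kb (57.1).

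Several named genes outside the pathway lists followed the 5 across the arrays. Likeness was measured as Pearson's r over the 18 arrays after the mean of each line was removed, and it includes the differences that chose the genes. The secreted protease gene HTRA1 was most like ROR1 (r = 0.91) and MAML3 (r = 0.95), and TSC2, which restrains the growth kinase MTOR, came next for MAML3 (0.92) and, after the surface protein gene CD99 (0.89), for ROR1 (0.89). CAMK2D, a calcium-dependent kinase gene, also followed MAML3 (0.90). MTOR was most like RNF115 (0.97) and WSB2 (0.95), and the nuclear import receptor gene IPO9 was most like EPS15L1 (0.98) and second for RNF115 (0.96) and WSB2 (0.95). WDR4, a subunit of a tRNA methyltransferase, followed for EPS15L1 (0.98) and WSB2 (0.95), NF2 for EPS15L1 (0.96) and SLC35D4 for RNF115 (0.96).

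MTOR, IPO9 and WDR4 had larger differences than the genes of the 5 they resembled, in both MDA-MB lines. MTOR differed by -0.70 log2 in MDA-MB-231, -0.71 in MDA-MB-468 and -0.07 in SKBR3. IPO9 differed by -1.11, -0.94 and 0.07 and WDR4 by -0.93, -0.80 and 0.11. HTRA1 differed by -0.85, -0.60 and -0.23, and TSC2 by -0.41, -0.38 and -0.03. Among the 5 themselves, the same measure ran from 0.80 for ROR1 and WSB2 to 0.98 for RNF115 and WSB2.

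**Figure D5:**
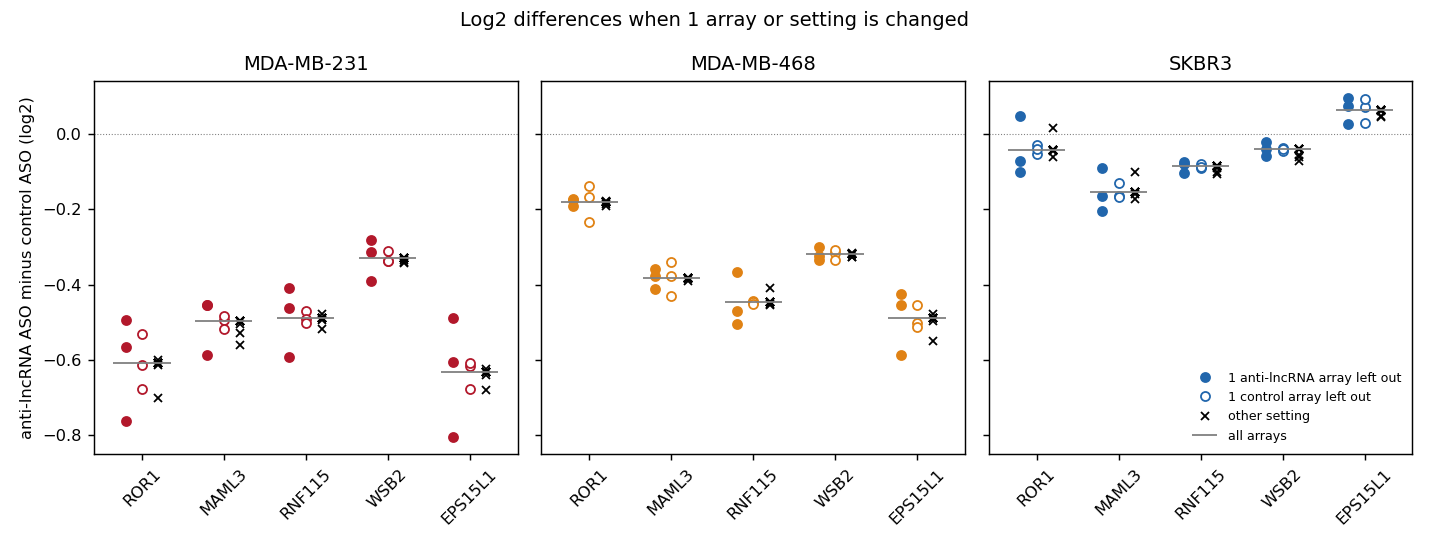
Log2 differences (y axis) of the 5 genes when 1 array is left out or another setting is used, 1 panel per line, with the value from all arrays as a bar. All values stay below 0 in MDA-MB-231 and MDA-MB-468, where the lowest are those without anti-AL078604.2 replicate 1 in MDA-MB-231, and ROR1 in SKBR3 has values on both sides of 0.

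Leaving out 1 array at a time moved the differences as follows. In MDA-MB-231 they ranged from -0.81 to -0.49 for EPS15L1, from -0.76 to -0.50 for ROR1, from -0.59 to -0.45 for MAML3, from -0.59 to -0.41 for RNF115 and from -0.39 to -0.28 for WSB2. The lowest of each range was reached without anti-AL078604.2 replicate 1. In MDA-MB-468 the ranges were -0.59 to -0.43 for EPS15L1, -0.51 to -0.37 for RNF115, -0.43 to -0.34 for MAML3, -0.34 to -0.30 for WSB2 and -0.23 to -0.14 for ROR1.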

How the data were processed

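Per the submitters' processing notes, the authors used Transcriptome Analysis Console on the array scans. Version, summarization, normalization and genome build are not given in the sources used here. Because nothing names a scale, the range of the deposited values, 0.414 to 13.8, was the basis for reading them as log2 expression. GEO's platform annotation names 1 gene for 16098 of 53617 features, and symbols were updated through RefSeq (GRCh38.p14).

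Features entered the test if the mean of at least 1 of 6 groups was above the median over all features. limma 3.58.1 (R 4.3.3) fitted 1 mean per group to the 18 arrays, with an intensity trend, 12 residual degrees of freedom, two-sided p-values and Benjamini-Hochberg adjustment over all tested features at 0.05. Precision is limited by having 3 arrays per group. The fit was tested on simulated data. The 5 genes and the pathway lists were chosen with earlier results of these data known. Beside the 5, the text names the 2 genes of each list with the smallest p per line, close relatives and nearest neighbours. It also names the 3 genes most like each of the 5. LIX1L and NF2 were chosen after their values were seen, and so were the motifs.

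Alternatives were other filters, scalings and fits and the omission of each array.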

Additional observations from a re-analysis of the deposited data

Results flagged for a closer look

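KLF2, the neighbour of EPS15L1, and the Frizzled receptor gene FZD2 had all 3 anti-AL078604.2 arrays above all controls in MDA-MB-231 and below all controls in MDA-MB-468. The MDA-MB-231 difference minus the MDA-MB-468 difference was 0.40 ± 0.145 log2 for KLF2 (0.24 in MDA-MB-231 and -0.17 in MDA-MB-468) and 0.36 ± 0.146 for FZD2 (0.22 and -0.14). Neither difference between the lines passed, with a limma adjusted p of 0.998 for both, and opposite separation of this kind was seen in 0.409% of all tested features. For the difference between the lines limma called 0% of the 29855 tested features (0 features), with 1243 of the 29855 at an unadjusted p under 0.05. Groups of 3 arrays were too small to look for single outlying arrays.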

How the results depend on the processing

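The genes were chosen on their differences in MDA-MB-231 and MDA-MB-468, and filters, the trend and the block do not alter a difference, so its small changes there are no sign of stability. In SKBR3 none passed under any alternative. ROR1 there had 0.0158 log2 with array weights and ran from -0.0996 to 0.0487 when 1 array was left out, the highest without anti-LINC01269 replicate 1, and the cause was not tested.

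Counts of calls depended on the setting. In MDA-MB-231, 51 features and all 5 genes were under the threshold. With no filter it was 28 features and 2 genes, with a stricter filter (75th percentile) 99 features, without the intensity trend 26 features and 1 gene, with median-centred arrays 42 features and 4 genes, with the arrays of the line alone 3 features and 0 genes, with array weights 2413 features, and with named features only 107. With the replicate number as a block (replicate block) it was 0 features and 0 genes. Leaving out 1 array gave 0 to 532 features and 0 to 5 genes, the highest of both without anti-AL078604.2 replicate 1. In MDA-MB-468, 2 features and 0 of the 5 genes were called, against 1 with the stricter filter, 0 with the replicate block or the line alone, 5199 features and 4 genes with array weights and 25 features and 2 genes with named features only, and 0 to 12 features when 1 array was left out, the highest without anti-AL078604.2 replicate 3. In SKBR3, 0 features were called, against 1 with no filter and 0 to 231 when 1 array was left out, the highest without anti-LINC01269 replicate 2. The array weights reached 9.62 for MDA-MB-468 anti-AL078604.2 replicate 2, against 0.387 for replicate 3. The cause of these changes in the counts was not tested. Deviations from the group means of same-numbered anti-lncRNA and control arrays correlated with r from -0.124 to 0.101, so the numbers were not taken as pairs.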
